A study of Mus musculus with 18 samples.

Results

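LARS2 and MT2B2 were the gene and the repeat whose RNA differed most between individual mice among the abundant transcripts of these hippocampi, and the description below follows them mouse by mouse. They were chosen from earlier readouts of these same libraries: LARS2 by its name in the gene count table and MT2B2 by its name in the repeat count table, which makes 2 members among 16790 genes and repeats counted. Their large spread is therefore the reason they are described and not a result of a test. The same choice also named every repeat entry of class rRNA, but the repeat table used here lists 0 entries of that class, so covariation with ribosomal RNA repeats could not be measured. Hippocampus RNA from 18 C57/B6 mice was sequenced, with 6 mice per group and 3 males and 3 females in each. The older 3TC-treated mice were 20 months old and had drunk water with 2 mg/mL of the reverse transcriptase inhibitor 3TC (lamivudine) over 6 weeks. The older mice were 20 months old and served as their control, and the younger mice were 9 months old and drank water without the drug. All came from one inbred strain, and the left hippocampus of each mouse gave 1 library.

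Lars2 encodes the leucyl-tRNA synthetase of mitochondria, a nuclear-encoded enzyme that attaches leucine to the matching mitochondrial tRNA so that mitochondrial ribosomes can translate the proteins encoded by mitochondrial DNA. MT2B2 is a subfamily of MT2 elements, the long terminal repeats (LTRs) of ERVL endogenous retroviruses, whose relative MT2_Mm flanks MERVL and is known for its activity in the early mouse embryo. Ribosomal RNA is transcribed by RNA polymerase I from tandem gene repeats, makes up most of the RNA of a cell, and is depleted before total RNA is sequenced.

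The libraries held 34584615 to 49126203 counts each over genes and repeats together, of which repeats took 63.4% to 85.7%. Levels are given as counts-per-million (CPM) scaled by TMM factors, and log2 values carry a prior count of 2. All 9 listed neuronal genes were tested, among them the dentate gyrus factor PROX1 and the more general neuronal genes CAMK2A and RBFOX3. They summed to 184 to 1067 CPM in older 3TC-treated, 537 to 1000.2 CPM in the older group and 597 to 1076 CPM in the younger group. This sum is not specific to the hippocampus and does not show what each dissection held. The 5 thalamus markers summed to 60.9 to 365 CPM in older 3TC-treated, 58.0 to 68.9 CPM in the older group and 54.4 to 136 CPM in the younger group, and the 6 choroid plexus markers summed to 17.2 to 399 CPM in older 3TC-treated, 26.2 to 627 CPM in the older group and 23.4 to 612 CPM in the younger group. With 3TC, 0 of 9 neuronal (median -0.25) and 0 of 6 choroid plexus markers had a log2 fold change above 0, against 5 of 5 thalamus, 4 of 4 oligodendrocyte and 3 of 3 endothelium markers and 53.4% of all genes. In these lists 0 genes were called, beside 0.0119% of all features with age and 0% with 3TC. The lists were set against the members only as relations over mice. In bulk tissue, fewer cells of a type and less RNA per cell cannot be told apart.

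LARS2 spanned a 69.8-fold range over the 18 mice, which made it one of the least stable transcripts of the data at one of the highest levels. Its lowest value was 37.8 CPM (1803 counts, older 3TC-treated female DFO8) and its highest was 2635 CPM (90715 counts, older male CMO3). The SD of its log2 CPM was 1.66, and it ranked 9 of 16774 genes and repeats tested, whose median SD was 0.27. The features above it were the Y-linked genes DDX3Y, KDM5D, UTY, USP9Y, RBMY and SRY, the choroid plexus transthyretin gene TTR and the repeat C573_MM. At the median count of LARS2 of 20549, counting alone gives an SD of about 0.0101 on the log2 scale, far under the spread between mice. In 6 of the 18 mice LARS2 was the most counted gene of the table, whereas in DFO8 it ranked 1182 by counts. It took 1.15% of all gene counts in CMO3 and 0.0168% in DFO8.

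MT2B2 spanned a 7.52-fold range. It was lowest in the younger male YM1 at 298 CPM (14249 counts) and highest in CMO3 at 2241 CPM (77138 counts), the mouse that was also highest for LARS2. Its SD of log2 CPM was 0.80, rank 28 of all 16774 features and rank 3 of 1139 repeats, whose median SD was 0.36. Among the 381 features with a mean log2 CPM of at least 8, LARS2 and MT2B2 had the highest and the next highest SD, followed by CAMK2A, the calcium/calmodulin kinase of excitatory synapses, at 0.69.

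**Figure D1:**
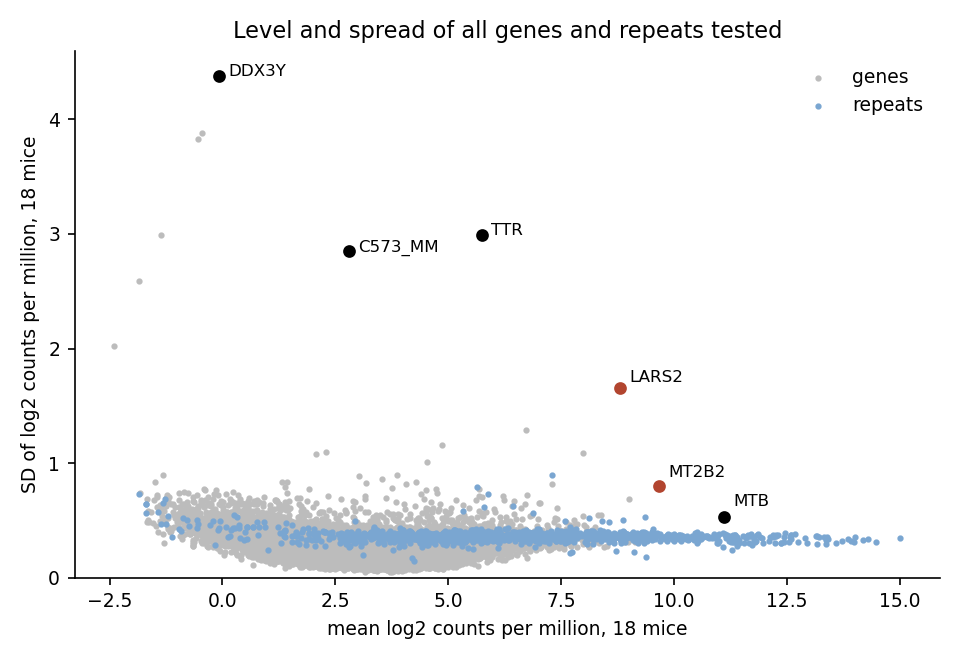
Mean level (horizontal axis, log2 CPM) and SD over 18 mice (vertical axis, log2 CPM) of each of 15635 genes (grey) and 1139 repeats (blue) tested, with LARS2 and MT2B2 in red. LARS2, at an SD of 1.66, and MT2B2, at 0.80, stand above the features of like abundance, and DDX3Y, TTR, C573_MM and MTB are marked in black.

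The mice did not fall into a high and a low set. In the order of LARS2 levels the widest gap between neighbours was 1.43 on the log2 scale, between DFO8 and the next mouse, and the next widest was 0.84, within a range of 6.12. For MT2B2 the widest gap was 0.51 within a range of 2.91.

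In the older 3TC-treated mice LARS2 had its lowest value at 37.8, its median at 688 and its highest at 1340 CPM. In the older mice the lowest value was 157, the median 739 and the highest 2635 CPM. In the younger mice these values were 102, 415 and 1541 CPM. The 3 groups overlapped over most of their ranges, and within each group the highest mouse was far above the lowest: 35.5-fold in older 3TC-treated, 16.8-fold in older and 15.1-fold in younger mice.

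MT2B2 showed the same picture on a narrower scale. Its lowest, median and highest values were 388, 1076 and 1571 CPM in the older 3TC-treated mice. They were 475, 888 and 2241 CPM in the older mice, and 298, 669 and 1324 CPM in the younger mice. The groups overlapped here as well, with the highest mouse 4.05-fold above the lowest in older 3TC-treated, 4.72-fold in older and 4.45-fold in younger mice.

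The age comparison asked whether the hippocampus of older mice differed from that of younger mice. LARS2 averaged 936 ± 911 CPM in older mice, against 554 ± 540 CPM in younger mice (SD, n = 6 each), and MT2B2 averaged 1097 ± 633 CPM in older mice, against 694 ± 350 CPM in younger mice (SD, n = 6 each). The fitted log2 fold change of LARS2 with age was 0.76 ± 0.77 (SE), with a 95% interval of -0.88 to 2.40 and an adjusted p of 0.9999 in edgeR's quasi-likelihood test over all features. For MT2B2 it was 0.66 ± 0.40, with an interval of -0.20 to 1.52 and an adjusted p of 0.9999 in the same edgeR test. Neither member was called, and 0.0119% of the 16774 features were called in this comparison, the 2 genes FGFBP3 and IDE. An exact permutation test of the mean log2 CPM over all 924 assignments gave two-sided p values of 0.394 for LARS2 and 0.175 for MT2B2. Of 6 older mice, 4 exceeded the younger group's mean log2 CPM for LARS2 and 5 for MT2B2. A single mouse moved both fold changes by more than 1.5 times: without CMO3 they were 0.11 for LARS2 and 0.32 for MT2B2, and without the younger female YF3 the LARS2 value was 1.39. With sex as a covariate the LARS2 value was 0.39.

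The drug comparison asked whether 3TC altered the transcripts of older mice. LARS2 averaged 707 ± 578 CPM in older 3TC-treated and 936 ± 911 CPM in older mice (SD, n = 6 each), and MT2B2 averaged 1016 ± 528 CPM in older 3TC-treated and 1097 ± 633 CPM in older mice (SD, n = 6 each). The log2 fold change was -0.40 ± 0.77 (SE) for LARS2, with a 95% interval of -2.04 to 1.23, and -0.11 ± 0.40 for MT2B2, with an interval of -0.97 to 0.74. The adjusted p was 0.9999 for both in edgeR's quasi-likelihood test, and 0% of features were called (0 of 16774 by edgeR and 0 by DESeq2, while 194 had an unadjusted edgeR p under 0.05). The exact permutation test gave two-sided p values of 0.589 for LARS2 and 0.779 for MT2B2. The signs rested on single mice: without CMO3 the values were 0.25 for LARS2 and 0.23 for MT2B2, and MT2B2 was also above 0 without DFO8 (0.04) or without DFO5 (0.05). These intervals leave room for differences of more than 2-fold in LARS2 in either direction, so the 6 mice per group could not resolve a change of that size.

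**Figure D2:**
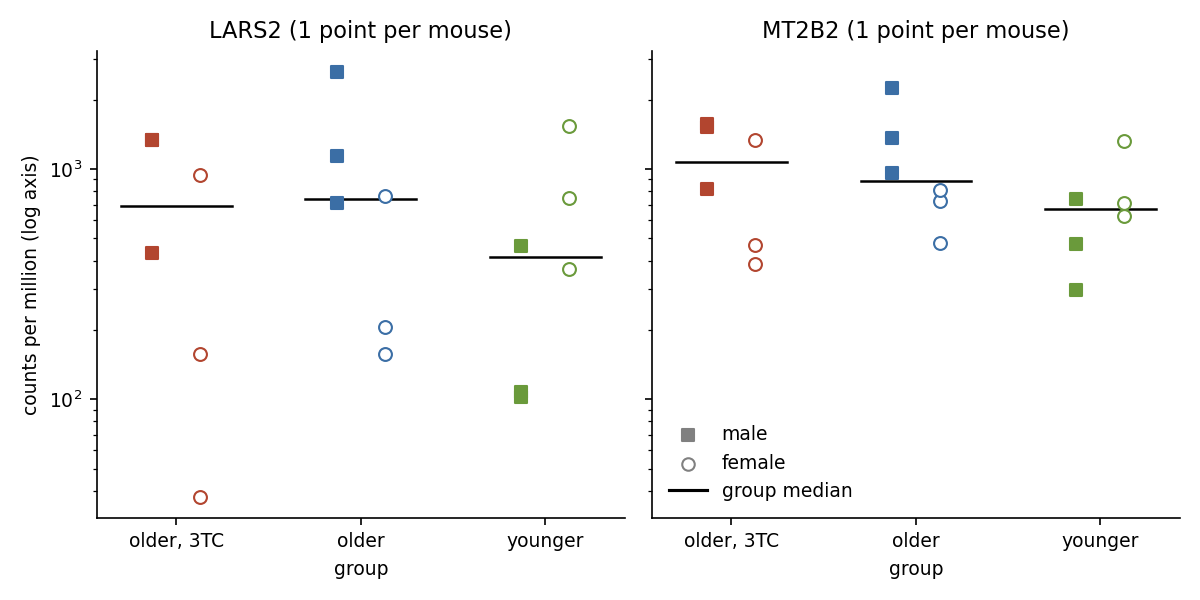
CPM of LARS2 (left panel) and MT2B2 (right panel) on a log axis in older 3TC-treated, older and younger mice, 1 point per mouse, with filled squares for males, open circles for females and a black line at the group median. LARS2 runs between 37.8 and 2635 CPM and MT2B2 between 298 and 2241 CPM, and the groups overlap, while the 3 older males lie above the 3 younger males in both panels.

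Split by sex, the mean age difference was positive in males and negative in females for both members. LARS2 had 1141, 2635 and 711 CPM in the older males CMO6, CMO3 and CMO1, against 107, 460.4 and 102 CPM in the younger males YM8, YM2 and YM1. The male groups did not overlap, which held for 2.65% of the 16774 features in either direction and for 1.25% with the older males higher. In females LARS2 had 766, 157 and 206 CPM in the older CFO3, CFO2 and CFO1, against 745, 1541 and 369 CPM in the younger YF8, YF3 and YF2, so that the older females were mostly at the low end and the groups overlapped, whereas 1.96% of all features did not overlap in females. The mean log2 CPM of older males exceeded that of younger males by 2.91, while the older females were at -1.37 relative to the younger females. The difference of these values was 4.27, with a two-sided p of 0.02 in an exact permutation of ages within each sex over 400 assignments, where the smallest p is 0.005.

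MT2B2 was at 1368, 2241 and 962 CPM in the older males CMO6, CMO3 and CMO1, against 470.1, 737 and 298 CPM in the younger males YM8, YM2 and YM1. These groups did not overlap either, beside the same 2.65% and 1.25% of all features. In females it was at 724, 813 and 475 CPM in the older CFO3, CFO2 and CFO1, against 713, 1324 and 624 CPM in the younger YF8, YF3 and YF2. These groups overlapped, and of the younger females only YF3 lay above the range of the older ones. The mean difference was 1.61 on the log2 scale in males and -0.36 in females, and the difference between the sexes was 1.97 (exact permutation, two-sided p = 0.035). Since LARS2 and MT2B2 moved together over mice, these are not independent observations. The sex split was chosen after the data had been seen, and the same permutation test was run on 60 values (30 features in 2 comparisons), of which 6 had an unadjusted p under 0.05. In edgeR's quasi-likelihood test of the same difference over all features, the estimates were 3.98 ± 1.33 (SE, unadjusted p = 0.00792) for LARS2 and 2.01 ± 0.67 (unadjusted p = 0.00763) for MT2B2. Both had an adjusted p of 0.99999 by edgeR, and 0% of features were called (0 of 16774, with 32 at an unadjusted p under 0.05).

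In the drug comparison the sexes did not separate in this way. LARS2 was at 1332, 433 and 1340 CPM in the older 3TC-treated males DMO5, DMO2 and DMO1, within the range of the 3 older males apart from DMO2. It was at 37.8, 944 and 157 CPM in the older 3TC-treated females DFO8, DFO4 and DFO5, a range that enclosed the 3 older females. The mean log2 difference between older 3TC-treated and older mice was -0.49 in males and -0.71 in females for LARS2, and -0.20 in males and -0.07 in females for MT2B2. The difference between the sexes was 0.22 for LARS2 and -0.13 for MT2B2 on this scale (exact permutation p = 0.91 and 0.885), while the edgeR estimates were -0.54 ± 1.28 and -0.35 ± 0.66 (SE), so its sign depended on the estimate for LARS2.

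LARS2 and MT2B2 covaried closely over the mice. The Pearson r of their log2 CPM was 0.88 over 18 mice (Spearman rho 0.88), which is given as a description because the pair was chosen for it and because all values of a mouse share 1 library and its scaling. Gene and repeat counts of a mouse also came from the same reads. Reads counted both as LARS2 and as a repeat cannot be told apart here from separate RNAs that vary together. Whether copies of MT2B2 or MTB lie inside Lars2 was not tested. Within groups r was 0.91 in older 3TC-treated, 0.84 in older and 0.94 in younger mice, with 6 mice each. It was 0.98 over the 9 males and 0.76 over the 9 females. Leaving out any single mouse kept r between 0.86 and 0.91, and without the 2 mice farthest from the median of LARS2, DFO8 and YM1, it was 0.89. The older female CFO2 departed most plainly in rank of CPM: it was among the 4 lowest mice for LARS2 at 157 CPM yet held 813 CPM of MT2B2. Repeats took 85.7% of the counts of CFO2, the largest share of any library. Within its MT2 counts MT2B2 took 9.77%, the lowest share of the older mice, so the departure did not hold on that scale.

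On the linear scale the relation was close to a straight line with an offset. A least-squares fit gave 0.729 ± 0.0604 CPM of MT2B2 for each CPM of LARS2 (SE, n = 18), on top of 402 ± 59.3 CPM at a LARS2 level of 0. Leaving out each mouse in turn kept the slope between 0.712 and 0.772. Fitted within groups of 6 mice, the slope was 0.900 ± 0.0759 in older 3TC-treated, 0.667 ± 0.0981 in older and 0.627 ± 0.0813 in younger mice (SE).

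**Figure D3:**
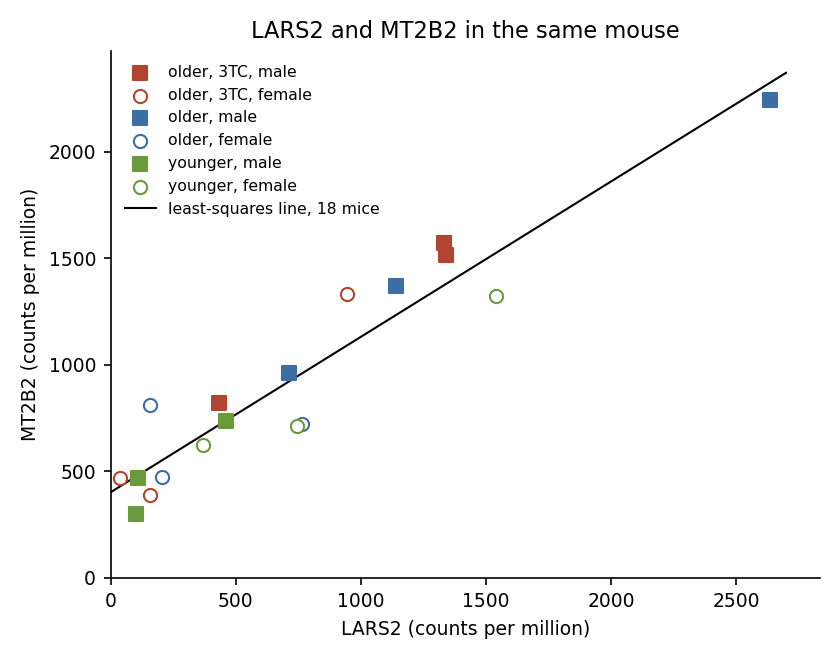
MT2B2 CPM (vertical axis) against LARS2 CPM (horizontal axis) in the same mouse, with colour for the group and filled squares for males and open circles for females. The line is the least-squares fit over 18 mice, with a slope of 0.729, and CMO3 at 2635 and 2241 CPM is at the upper end of both axes.

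The other MT2 subfamilies had smaller ranges than MT2B2 and lower r with LARS2. The table held 5 of them, and the range of each over the mice was 2.31-fold for MT2B, 2.46-fold for MT2_Mm, 2.49-fold for MT2A, 2.53-fold for MT2C_Mm and 2.54-fold for MT2B1. These 5 followed each other, with Pearson r between 0.910 and 0.996 for the 10 pairs. Over 18 mice their r with LARS2 was 0.26 (MT2A), 0.24 (MT2B1), 0.23 (MT2B), 0.27 (MT2C_Mm) and 0.37 (MT2_Mm). These pooled values differed by group. Their r with LARS2 was 0.37 to 0.67 in older 3TC-treated, -0.49 to -0.42 in older and 0.67 to 0.74 in younger mice. With MT2B2 it was 0.60 to 0.80 in older 3TC-treated, -0.16 to -0.10 in older and 0.84 to 0.91 in younger mice. How closely repeats of other families followed each other is not given here, so the high r of the 10 pairs is not shown to be particular to MT2. MERVL-int, the internal part of the MERVL retrovirus that MT2_Mm flanks, ranged 2.51-fold, and its r was 0.27 with LARS2 and 0.47 with MT2B2. For comparison, the median r of LARS2 was 0.25 over all 1139 repeats and 0.02 over the other 15634 genes. The median r of MT2B2 was 0.46 over the other 1138 repeats. No test of the difference between MT2B2 and its relatives was made, since MT2B2 was chosen for this pattern.

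The share of MT2 counts that fell on MT2B2 showed this within each library, free of any scaling between libraries. MT2B2 took 8.77%, 15.4% and 23.2% of MT2 counts in the lowest, median and highest of the older 3TC-treated mice. It took 9.77%, 13.5% and 31.3% in the older mice, and 8.68%, 10.98% and 16.8% in the younger mice. The 2 highest shares, 31.3% in CMO3 and 28.0% in CMO6, belonged to older males, and the lowest belonged to YM1, DFO8 and YM8, which had the 3 lowest LARS2 levels. The counts of MT2B2 divided by those of MT2B1 ran between 0.388 (DFO8) and 1.89 (CMO3). Over 18 mice the log2 share followed the log2 share of gene counts that fell on LARS2 with a Pearson r of 0.85 and a Spearman rho of 0.94.

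**Figure D4:**
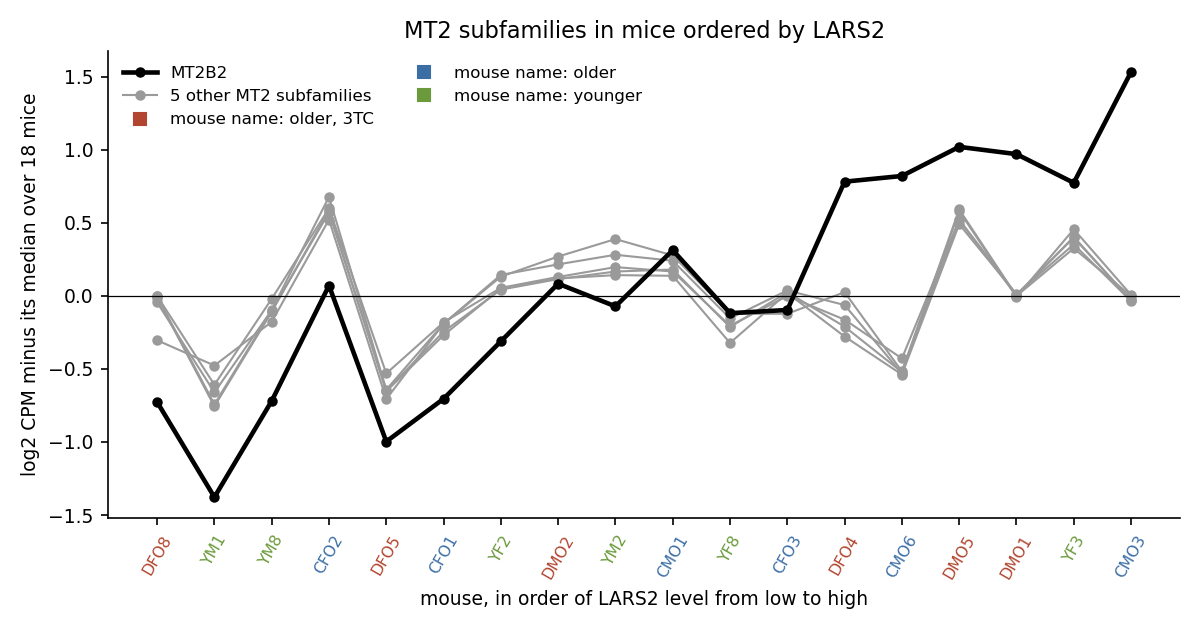
Log2 CPM of MT2B2 (black) and of the 5 other MT2 subfamilies (grey), each minus its own median over 18 mice (vertical axis), with mice ordered by LARS2 level from low to high (horizontal axis, names coloured by group). The 5 grey lines run close to each other, apart from 1 in the mouse lowest for LARS2, while MT2B2 lies below them in the mice lowest for LARS2 and above them in the 6 highest.

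By the rule of highest Pearson r over 18 mice, the repeats most like LARS2 were MT2B2 (0.88), MTB (0.86), IAPEY5_I-int (0.65), SYNREP_MM (0.57) and Eulor7 (0.53). Only MT2B2 and MTB had an r above 0.8 with LARS2 among the repeats. MTB, an LTR of the ERVL-MaLR family and thus a separate family from MT2B2, was the closest repeat to MT2B2 as well, with an r of 0.93. It had 1074, 2366 and 3404 CPM in the lowest, median and highest of the older 3TC-treated mice, against 1755, 2408 and 3842 CPM in the older mice. In the younger mice these values were 1038, 2276 and 3535 CPM. The highest MTB level was again in CMO3 and the lowest in YM1. MTB gained 1.03 ± 0.137 CPM for each CPM of LARS2 (SE, n = 18), a change per LARS2 count of the same order as that of MT2B2. With single mice left out this slope was 0.966 to 1.26. Within groups of 6 mice it was 1.42 ± 0.330 in older 3TC-treated, 0.729 ± 0.121 in older and 1.45 ± 0.274 in younger mice (SE). The log2 fold change of MTB was 0.21 ± 0.29 with age and -0.15 ± 0.29 with 3TC (SE, adjusted p = 0.9999 for both in edgeR's quasi-likelihood test).

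The other repeats most like MT2B2 were IAPEY5_I-int (0.83), an internal sequence of ERVK retroviruses, the LINE subfamily L1Md_A (0.68), LTR75_1 (0.66) and MER66-int (0.66). IAPEY5_I-int held 72.1 to 151 CPM in older 3TC-treated, 55.1 to 138 CPM in the older group and 29.7 to 159 CPM in the younger group, a 5.36-fold range, while L1Md_A ranged 2.38-fold at 8925 to 21252 CPM. Counts of Eulor7 (8 to 32 per mouse) and LTR75_1 (26 to 60 per mouse) were low: counting alone gives log2 SDs of about 0.38 and 0.22 at their median counts, against SDs over mice of 0.54 for Eulor7 and 0.41 for LTR75_1. In the other direction, L1M6B stood alone among repeats, with an r of -0.69 with LARS2 and -0.70 with MT2B2. It was singled out after its values had been seen.

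Among genes, those most like LARS2 were GPR135 (0.80), an orphan G protein-coupled receptor, LPIN2 (0.77), a phosphatidate phosphatase of lipid synthesis, CMSS1 (0.74), APOA2 (0.72), an apolipoprotein, and PRH1 (0.72). None approached LARS2 in spread. LPIN2 ranged 1.83-fold at 24.4 to 44.6 CPM, GPR135 ranged 1.70-fold at 2.30 to 3.92 CPM, and APOA2 ranged 1.72-fold at 1.47 to 2.52 CPM. Counting error was much of the spread of the low ones: at the median counts it gives a log2 SD of 0.16 for APOA2, whose SD over mice was 0.18, and of 0.13 for GPR135, whose SD was 0.22. The genes most like MT2B2 were LARS2 (0.88), PRH1 (0.82), the chemokine gene CCL25 (0.77), CMSS1 (0.75) and TFAP2D (0.74), a transcription factor. CCL25 had a log2 SD of 0.19, with 0.14 from counting alone. Over all genes, 95% of the r values lay between -0.42 and 0.41 for LARS2 and between -0.54 and 0.57 for MT2B2. Since these genes were picked as the highest of 15634 and 15635 values, their r has no p.

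**Figure D5:**
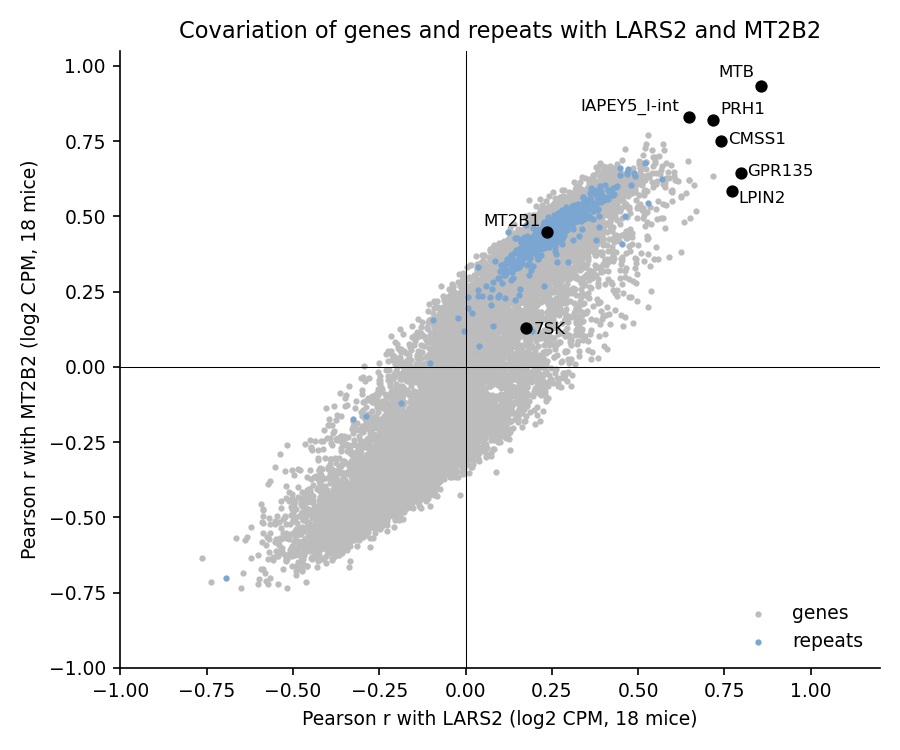
Pearson r over 18 mice with LARS2 (horizontal axis) and with MT2B2 (vertical axis) for every other gene (grey) and repeat (blue) tested. MTB, at 0.86 and 0.93, lies outside the cloud at the upper right, while MT2B1 (0.24 and 0.45) lies in the middle of the repeats and 7SK (0.18 and 0.13) below them.

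No rRNA level could be followed. The only entry of class RNA was 7SK, which is not a ribosomal RNA but a small nuclear RNA made by RNA polymerase III that holds the elongation factor P-TEFb inactive. It had 1708 to 3077 CPM in older 3TC-treated, 1881 to 3246 CPM in the older group and 2206 to 2699.9 CPM in the younger group, a 1.90-fold range, and its r was 0.18 with LARS2 and 0.13 with MT2B2. Of 13 genes listed for a possible overlap with or nearness to rDNA-derived sequence, 3 were in the gene table. The list also names small RNAs such as RN7SK that are not ribosomal. Whether the 3 genes overlap or neighbour rDNA-derived sequence was not tested. CMSS1 ranged 2.08-fold at 2.59 to 5.40 CPM with an r of 0.74 with LARS2, FILIP1L ranged 2.03-fold at 2.82 to 5.72 CPM with an r of 0.34, and CAMK1D ranged 2.14-fold at 31.1 to 66.5 CPM with an r of -0.15. CMSS1 and FILIP1L are known to overlap each other in the genome, and without knowing whether strand was used in counting, their reads cannot be told apart. The mitochondrial rRNA genes MT-RNR1 and MT-RNR2 and the other 10 of the 13 listed genes are not analysed here.

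The sequence of Lars2 was compared with the rRNA-locus transcripts of the same annotation to see whether they share long stretches. All 9 Lars2 transcripts of GENCODE vM21 were searched by blastn against 8 transcripts with 12052 bases of the rRNA loci (Gm26917, Gm42418, AY036118, CT010467.1, mt-Rnr1 and mt-Rnr2). The longest match had 27 bases, of which 23 were identical (85.2%), between bases 1315 and 1341 of Lars2-201 and the minus strand of Gm26917-202, bases 429 to 403. It is shown because it is the best match found, with identical bases in capitals and each strand 5′ to 3′ as aligned.
Lars2-201: AATaGGAAtCcCCAgCACCAGCTCAGA
Gm26917-202, minus strand: AATgGGAAgCgCCAcCACCAGCTCAGA
No Lars2 match reached 100 bases at 90% identity, and 0 other genes of the table had such a match. The 28S rRNA was not among the sequences searched, nor were the introns of Lars2 or any repeat consensus, so the search covers spliced transcripts against these loci only.

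Lars2 lies on the plus strand of mouse chromosome 9 at chr9:123366927-123462666 (GRCm38, which is mm10), and its transcript Lars2-201 has 21 exons. The nearest genes of the count table on each side did not share its spread. LIMD1, a LIM domain protein gene that starts 16040 bases downstream on the same strand, had 6.70 to 9.15 CPM over 18 mice, a 1.37-fold range, and its r with LARS2 was 0.39. TMEM158, a membrane protein gene on the minus strand whose nearer edge lies 106163 bases upstream, had 4.13 to 11.9 CPM, a 2.87-fold range, with an r of 0.20.

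LARS2 was set beside a list of genes that charge mitochondrial tRNAs. Per kilobase of annotated exon, LARS2 had 3.40 to 238 CPM over the 18 mice, whereas the median of the 21 other genes of the list lay between 1.30 and 1.76 CPM per kilobase. These 21 are 18 aminoacyl-tRNA synthetases that work in mitochondria and 3 subunits (GATB, GATC and QRSL1) of the amidotransferase that completes glutaminyl-tRNA there, and over the 18 synthetases alone the median lay between 1.29 and 1.76 CPM per kilobase. The ratio of LARS2 to the median of all 21 genes ran between 2.19 in DFO8 and 160.4 in CMO3, with a median of 33.5. LARS2 was above every other gene of the list in 16 of 18 mice. The exceptions were DFO8 and YM1, in which GARS, the glycine enzyme that serves both cytosol and mitochondria, was higher. The most variable of the 21, SARS2 for serine, had an SD of 0.24 on the log2 scale, against 1.66 for LARS2. Their r with LARS2 ran between -0.35 (RARS2, for arginine) and 0.45 (FARS2, for phenylalanine), with a median of 0.14.

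No other gene of the mitochondrial list and no cytosolic synthetase gene was called with age or with 3TC. The share called over all 16774 features was 0.0119% with age and 0% with 3TC. Of the 21 genes of the mitochondrial list, 10 had a log2 fold change above 0 with age (median 0.00) and 12 with 3TC (median 0.01), and 0 passed in either comparison in edgeR's quasi-likelihood test. Among its 18 synthetases alone, 8 were above 0 with age (median -0.01) and 11 with 3TC (median 0.01). The smallest p values with age were those of NARS2 (0.12 ± 0.08, SE) and WARS2 (0.10 ± 0.12), the asparagine and tryptophan enzymes, and with 3TC those of WARS2 (-0.17 ± 0.12) and TARS2 (0.11 ± 0.09), for threonine. Of the 18 cytosolic synthetase genes, 7 were above 0 with age (median -0.03) and 15 with 3TC (median 0.05), with 0 called. RARS (-0.10 ± 0.09 with age, 0.13 ± 0.09 with 3TC) led them by p in both comparisons. Over all genes, 46.4% were above 0 with age and 53.4% with 3TC, with medians of -0.01 and 0.01.

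No gene on the lists for making and processing ribosomal RNA was called either. Of all 16774 features, 0.0119% were called with age and 0% with 3TC. Over all genes, 46.4% had a log2 fold change above 0 with age and 53.4% with 3TC. Of 22 genes of RNA polymerase I transcription, 10 were above 0 with age (median -0.03) and 9 with 3TC (median -0.02). The smallest p values were those of POLR2E (-0.16 ± 0.10 with age), a subunit shared by the nuclear RNA polymerases, and POLR1D (-0.12 ± 0.11 with 3TC), a subunit shared by polymerases I and III. Their r with LARS2 ran between -0.43 (POLR2F) and 0.58 (TAF1C, a subunit of the promoter factor SL1). Of 37 rRNA processing and modification genes tested, 12 were above 0 with age (median -0.04) and 19 with 3TC (median 0.00), led by WDR75 (0.13 ± 0.09 with age) and NOP10 (-0.19 ± 0.14 with 3TC). Their r with LARS2 ran between -0.59 (NOP2, an rRNA methyltransferase) and 0.21 (RRP1B), with a median of -0.28, against 0.02 over all other genes. Their fold changes ran between -0.20 and 0.13 with age and between -0.19 and 0.14 with 3TC.

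No relation of the members with a measure of the libraries passed correction. The 20 relations of LARS2 and MT2B2 with total counts, with the percent of counts in other repeats and with 8 marker lists were tested by permutation, and the lowest adjusted p was 0.647. Of the 5 genes of the erythrocyte list only ALAS2 could be used, without any haemoglobin gene, so blood content was hardly covered. The largest r in size was that of MT2B2 with the percent of counts in other repeats: r = 0.48 (permutation p = 0.0432, adjusted p = 0.647) and rho = 0.41 (permutation p = 0.093, adjusted p = 0.725) over 18 mice. Within groups this r was 0.66 in older 3TC-treated, -0.13 in older and 0.89 in younger mice, and without the 2 mice farthest from the median, DFO5 and YM1, it was 0.11, so that it rested on those mice. For LARS2 the same relation had r = 0.28 (permutation p = 0.259, adjusted p = 0.832) and rho = 0.22 (permutation p = 0.381, adjusted p = 0.827). With total counts r was -0.09 for LARS2 (permutation p = 0.727, adjusted p = 0.928) and 0.04 for MT2B2 (permutation p = 0.875, adjusted p = 0.928). The labels name no date, extraction or sequencing batch, so within-batch values cannot be given.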

How the data were processed

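Total RNA of 18 hippocampi was sequenced by the study. Per its methods rRNA was depleted (Ribo-zero), whereas the labels name polyA RNA and a TruSeq kit; reads were aligned with STAR to mm10, gene counts came from STAR and repeat counts from TEtranscripts (RepEnrich2 was also run), and DESeq2 was used. The authors deposited raw counts per gene (15644) and per repeat (1146), 1 column per mouse; 0 columns lacked a matching label. No SDs or intervals here cover more than the spread between these mice or, where said, counting error.

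Groups, sex and age came from the labels. Both tables were joined, features with a mean count over 10 were kept (15635 genes, 1139 repeats), and edgeR 4.0.16 (TMM, quasi-likelihood test, limma 3.58.1, R 4.3.3) was fitted over the 3 groups, with Benjamini-Hochberg adjustment over 16774 features and a threshold of 0.05. The comparisons share the older mice. Intervals of fold changes came from the SE and the residual degrees of freedom. Single values were compared by exact permutation, and 20 library relations by 100000 permutations. Every pair of mice within a group differed beyond sampling noise (chi-square of at least 9.39 per degree of freedom in each of 45 pairs), so none was counted once. Exon lengths (15584 of 15635 genes) and transcripts came from GENCODE vM21, and matches from blastn 2.17.0. The members, lists and markers were chosen with earlier results of these data known. Named genes were the members, other MT2 subfamilies, neighbours of Lars2, the 5 genes and 5 repeats of highest r, and up to 4 genes of each list by smallest p, of which the leading ones are printed. Alternatives were DESeq2 1.42.0, other scalings, filters, feature sets and covariates, and leaving out each mouse.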

Additional observations from a re-analysis of the deposited data

Results flagged for a closer look

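For LARS2 the difference between older and younger mice ran in opposite directions in the sexes. The log2 difference was 2.91 in males and -1.37 in females, and the difference between them was 4.27 (exact permutation, two-sided p = 0.02; edgeR's adjusted p = 0.99999 over all features). For MT2B2 the values were 1.61 in males and -0.36 in females, with a difference of 1.97 (exact permutation, two-sided p = 0.035; edgeR's adjusted p = 0.99999). The difference between the sexes kept its sign without any single mouse. Its edgeR estimates were then 3.29 to 5.07 for LARS2 and 1.60 to 2.39 for MT2B2. The change within each sex was not refitted in this way. In females the MT2B2 groups overlapped, and of the younger ones only YF3 at 1324 CPM lay above the older range of 475 to 813 CPM. The sex split was chosen after the data had been seen. With 3 mice of each sex per group, both results rest on the same 12 libraries, and their shared variation means that they count as 1 pattern. MTB had log2 differences of 0.87 in males and -0.34 in females. It was picked as the repeat of highest r with MT2B2 over these same mice, so its values are not separate support. The 5 other MT2 subfamilies differed between the sexes by -0.01 to 0.06.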

How the results depend on the processing

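The age fold changes of LARS2 and MT2B2 stayed above 0 under every alternative except, for LARS2, the replicate block, and were called under none, with single mice left out between 0.11 and 1.39 for LARS2 and between 0.32 and 0.95 for MT2B2, and otherwise, apart from the block, between 0.39 and 0.88 for LARS2 and between 0.52 and 0.73 for MT2B2. The 3TC fold changes ran between -0.69 and 0.25 (LARS2) and between -0.28 and 0.23 (MT2B2) with single mice left out. They turned positive without CMO3 (0.25 and 0.23) and, for MT2B2, without DFO8 (0.04) or DFO5 (0.05). The 3TC difference between the sexes, by edgeR's estimate -0.54 for LARS2 and -0.35 for MT2B2, was -0.95 and -0.81 with scaling to total counts only, and -1.08 for MT2B2 among repeats alone. It ran between -1.60 and 1.42 for LARS2 and between -0.64 and 0.42 for MT2B2 with single mice left out, and turned positive without DFO4 (1.42 and 0.42) or CMO3 (0.15 and 0.04). The Pearson r of LARS2 with MT2B2 was 0.85 to 0.91 over all 25 alternatives, 0.89 given the mean of other repeats. The count of features called with age, 2 by edgeR, was 3 by DESeq2 and 0 with scaling to total counts only, and the cause was not tested. Among repeats alone it was 0, where the 2 called features, both genes, could not enter. Some mice of different groups share a sex and a number in their codes, but the labels do not say that a number marks a litter, batch or day. The deviations from the group means of the 3 pairs shared by older and younger mice had r of -0.55 (CMO1 and YM1), 0.01 (CFO3 and YF3) and 0.14 (CFO2 and YF2), so the numbers were not taken to pair the mice. With sex and number as a replicate block, added after the data were seen and with 4 residual degrees of freedom, 0 features were called with age and 0 with 3TC. The fold changes were then -0.86 (LARS2) and 0.04 (MT2B2) with age, and 0.37 (LARS2) and 0.38 (MT2B2) with 3TC, where older 3TC-treated and older mice share only 1 code (DMO1 and CMO1, r = 0.19) and the other links run through younger mice. The number of mice is one limit, since the counts of both members were high and their spread exceeded counting error. Each mouse gave 1 library, so differences between animals and between dissections or library preparations cannot be told apart.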
